A study of Bos taurus with 6 samples.

Results

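The miR-23, miR-24 and miR-27 family was listed under 8 names in these bovine liver libraries, bta-miR-23a, bta-miR-23b-3p, bta-miR-23b-5p, bta-miR-24, bta-miR-24-3p, bta-miR-27a-3p, bta-miR-27a-5p and bta-miR-27b. The rule took them by name and used no measured value, as every mature product so named among the 1030 mature miRNAs of the deposited tables. All 8 had a count above 2 in at least 2 libraries and were tested.

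Small RNA was sequenced from the liver of Wye Angus steers raised on 1 of 2 diets after weaning. The 3 grass-fed animals ate mainly alfalfa, hay or pasture and were 21 months old, and the 3 grain-fed animals ate mainly corn silage, shelled corn and soybean with minerals and were 14 months old. Each animal gave 1 library, so that p-values describe the spread between animals. Diet cannot be told apart from age or from sequencing depth, since the mature miRNA counts summed to between 3824592 and 6133960 in the grass-fed libraries and to between 464875 and 892929 in the grain-fed libraries.

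miRNAs are short RNAs, cut from 1 arm or both arms of a hairpin precursor, that bind messenger RNAs by the seed near their 5′ end and lower their output. In vertebrates miR-23, miR-27 and miR-24 hairpins lie side by side in paralogous clusters, the a cluster and the b cluster, which are each read as 1 primary transcript and then cut into separate products. The mature miR-24 of both clusters is the same molecule, whereas miR-23a and miR-27a each differ slightly from their b cluster counterparts outside the seed. miR-27 is known for repressing lipid regulators such as PPARG and RXRA, miR-23 for repressing glutaminase, and miR-24 for repressing genes of cell division and sterol control such as INSIG1.

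In the RefSeq annotation of ARS-UCD2.0, a later assembly than the ARS-UCD1.2 of the files, 6 of the 7 precursors that carry these products were found by name. MIR23A, MIR27A and MIR24-2 were neighbours and overlapped the uncharacterized gene LOC132345691. MIR23B, MIR27B and MIR24-1 were neighbours within AOPEP, an aminopeptidase gene. The precursor bta-mir-10174 had no match.

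The tables did not separate every product by cluster. bta-miR-24-3p was counted in full under both of its precursors, bta-mir-24-1 and bta-mir-24-2, whose counts differed by between 0.255% and 0.649% in the 6 libraries. Its level therefore holds both clusters. bta-miR-23b-3p was counted under bta-mir-23b and, with more reads, under bta-mir-10174, and the bta-mir-23b row held between 51.0% and 73.6% of the reads of the other row. The names bta-miR-10174-3p and bta-miR-10174-5p carried the same counts as bta-miR-23b-3p and bta-miR-23b-5p in every library, so that these pairs of names describe the same reads. bta-miR-24 was listed under bta-mir-24-1 with no arm in its name, and is called here the second product of that precursor. How reads that fit both the a and the b form of miR-23 or miR-27 were counted is not known from the sources. Their part in the ratios of these forms was not tested. Each value below is the largest count over the precursor rows of a name.

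Levels are CPM, each count as a share of the mature counts of its library after TMM scaling, which sets the libraries to each other by the bulk of their miRNAs. Values are given in the order of replicates 1, 2 and 3. They rank products and do not compare molecule numbers, since ligation of small RNA adapters differs between sequences. The family fell into 5 abundant products and 3 rare ones. The abundant products had at least 446 counts in every library, which leaves a counting SD of at most 4.74%. The rare products had at most 6 counts in any grain-fed library. Counting errors and intervals given here cover counting error only. In whole liver, fewer cells of a type and less RNA per cell cannot be told apart.

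bta-miR-27b, the b cluster form of miR-27, was the most abundant product of the family and stood at place 8 among all tested miRNAs. The grass-fed livers held 22899, 22489 and 22096 CPM of it and the grain-fed livers 19468, 21386 and 18971 CPM. The lowest grass-fed library was above the highest grain-fed library.

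bta-miR-27a-3p, its a cluster counterpart at place 30, had the reverse order of diets. The grass-fed libraries held 2575, 2202 and 1840 CPM and the grain-fed libraries 2809, 2930 and 2645 CPM. All grain-fed libraries were above all grass-fed libraries, with a gap from 2575 to 2645 CPM that is small beside the grass-fed range.

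bta-miR-24-3p, the main miR-24 product at place 37, was read at 2249, 1627 and 1868 CPM in grass-fed livers. In grain-fed livers it was at 1500.0, 1675 and 1391 CPM. The diets overlapped, because grass-fed replicate 2 lay below grain-fed replicate 2.

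For bta-miR-23b-3p, the b cluster form of miR-23 at place 39, the grass-fed values were 1419, 1522 and 1429 CPM and the grain-fed values 2143, 1961 and 1613 CPM. The grass-fed libraries lay close together and below every grain-fed library. The a cluster form bta-miR-23a, at place 59, was at 749, 560 and 660 CPM in the grass-fed libraries and at 995, 906 and 791 CPM in the grain-fed libraries. Its diets did not overlap either, and both miR-23 forms were lower in the grass-fed livers.

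Among the rare products, bta-miR-24 gave 73, 49 and 31 counts in grass-fed replicates 1, 2 and 3 and 3, 1 and 6 counts in grain-fed replicates 1, 2 and 3. After scaling these were 15.4, 11.5 and 8.14 CPM against 2.92, 1.42 and 10.6 CPM. Grain-fed replicate 3 lay within the grass-fed range and the other two grain-fed libraries below it.

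bta-miR-27a-5p, from the other arm of the miR-27a hairpin, gave 26, 15 and 14 counts in grass-fed libraries and 2, 2 and 1 counts in grain-fed libraries, which is 5.47, 3.53 and 3.67 CPM against 1.95, 2.83 and 1.77 CPM. The diets did not overlap, but every grain-fed value was below the level of 3 counts in its library, which was between 2.92 and 5.32 CPM. bta-miR-23b-5p, from the other arm of miR-23b, gave 6, 7 and 6 counts against 2, 0 and 0 counts. A count of 0 allowed up to 5.32 CPM in the shallowest library, above every grass-fed value, so that a difference was not detectable at this depth.

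**Figure D1:**
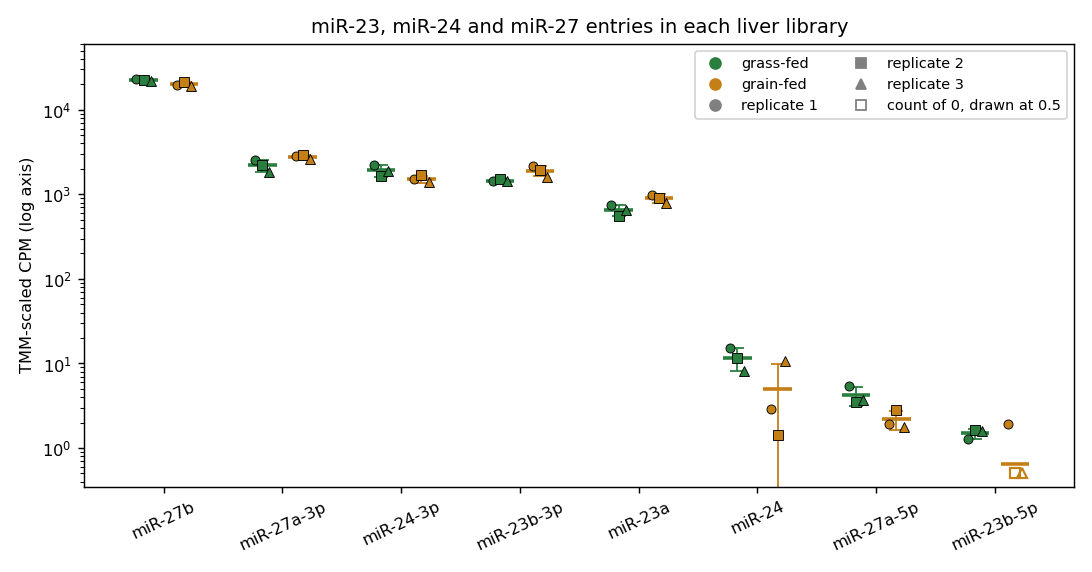
Levels of the 8 products by diet, with TMM-scaled CPM on a log axis, 1 marker per library, a line at the mean and bars for 1 SD over 3 libraries. The lower bar of grain-fed miR-24 runs off the axis, and grain-fed miR-23b-5p has no bar because its SD exceeds its mean. The 5 abundant products lie between 560 and 22899 CPM, far above the 3 rare ones, and the order of diets is not the same for all products.

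The order of the levels was largely shared by the diets. In grass-fed livers it ran from bta-miR-27b through bta-miR-27a-3p, bta-miR-24-3p, bta-miR-23b-3p, bta-miR-23a, bta-miR-24 and bta-miR-27a-5p to bta-miR-23b-5p. bta-miR-27a-3p and bta-miR-24-3p overlapped there and stood in this order in 2 of 3 libraries, while the other neighbours did not overlap. In grain-fed livers bta-miR-23b-3p came before bta-miR-24-3p in 3 of 3 libraries, by ratios between 1.16 and 1.43, although the ranges of the pair overlapped. The rare products bta-miR-24, bta-miR-27a-5p and bta-miR-23b-5p could not be ordered beyond their spread in grain-fed livers.

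The family as a whole took between 1.97% and 2.80% of the mature counts in grass-fed libraries and between 3.08% and 3.21% in grain-fed libraries. bta-miR-27b alone made up between 76.6% and 79.2% of the family's counts in grass-fed livers and between 72.3% and 74.6% in grain-fed livers. The summed level was 29913, 28417 and 27906 CPM in grass-fed livers and 26923, 28862 and 25424 CPM in grain-fed livers, and these ranges overlapped.

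The diets were compared with the two-sided quasi-likelihood test of edgeR over all 456 tested miRNAs, with log2 fold changes as grass-fed over grain-fed. None of the 8 products passed an FDR of 0.1 (0 of 8), where 87 of 456 miRNAs did (19.1%), with 9.65% called lower and 9.43% called higher in grass-fed livers. The smallest unadjusted edgeR p among the 8 products was 0.0355, for bta-miR-24, and the next was 0.0518, for bta-miR-23a. DESeq2 called 1 product, bta-miR-23a, at an FDR of 0.09998 (26% of its tested miRNAs called), limma-voom 0 (20.6%) and edgeR's exact test 0 (19.3%). The median log2 fold change of the 8 products was 0.25, against 0.13 for every tested miRNA. The ranges of the diets were separate for 5 of 8 products, against 32.9% of all tested miRNAs. With libraries scaled to their total counts 4 of 8 were separate, against 33.3% of all tested miRNAs, and bta-miR-27b was then separate in the opposite direction, at 21422, 15557 and 22011 CPM in grass-fed and 22384, 23788 and 23002 CPM in grain-fed livers.

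The miR-23 forms and bta-miR-27a-3p had negative values. bta-miR-23a was at 656 ± 94.4 CPM in grass-fed livers and 898 ± 102 CPM in grain-fed livers (SD, n = 3 each, as below), a log2 fold change of -0.45 (SE 0.21, edgeR FDR 0.197). bta-miR-23b-3p was at 1457 ± 56.8 against 1906 ± 269 CPM, a log2 fold change of -0.39 (SE 0.20, edgeR FDR 0.225). bta-miR-27a-3p was at 2206 ± 368 against 2795 ± 143 CPM, a log2 fold change of -0.34 (SE 0.20, edgeR FDR 0.300). With stricter filters on low counts these same 3 products passed FDR 0.1, as 3 of 7 tested products with at least 10 counts in 3 libraries (27.1% of miRNAs called) and 3 of 6 with the filterByExpr rule of edgeR (30.4%).

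The main miR-24 product and the b cluster form of miR-27 had positive values. bta-miR-24-3p was at 1915 ± 313 against 1522 ± 143 CPM, with a log2 fold change of 0.33 (SE 0.21, edgeR FDR 0.336). bta-miR-27b was at 22495 ± 402 against 19942 ± 1275 CPM, with a log2 fold change of 0.17 (SE 0.16, edgeR FDR 0.576). Both values turned negative when libraries were scaled to their total counts, to -0.052 and -0.23.

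The rare products had larger values with wider errors. bta-miR-24 was at 11.7 ± 3.62 against 4.99 ± 4.95 CPM, a log2 fold change of 1.41 (SE 0.60, edgeR FDR 0.161). Without grain-fed replicate 3, the library that lay within the grass-fed range, it was 2.30 (edgeR FDR 0.0704, 16.4% of tested miRNAs called), and it also passed FDR 0.1 with upper-quartile scaling (27.2% called) and with the replicate number as a block (18% called). It was 0.94 without grain-fed replicate 2 (edgeR FDR 0.483), 1.03 without grain-fed replicate 1 (edgeR FDR 0.431) and 1.001 with total counts (edgeR FDR 0.375), none of which passed. bta-miR-27a-5p was at 4.23 ± 1.08 against 2.18 ± 0.567 CPM, a log2 fold change of 0.96 (SE 0.60, edgeR FDR 0.339). For bta-miR-23b-5p it was 0.74 with an SE of 1.05 (edgeR FDR 0.751).

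**Figure D2:**
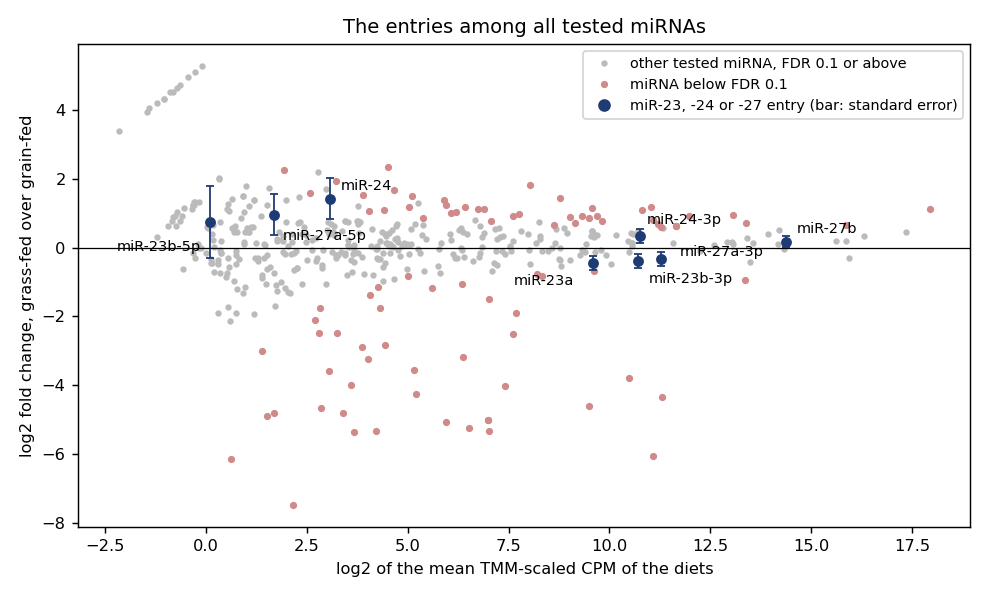
Log2 fold change of grass-fed over grain-fed against log2 of the mean TMM-scaled CPM for all 456 tested miRNAs, with the 8 products in blue with their standard errors and the miRNAs below FDR 0.1 in red. The 5 abundant products lie between -0.45 and 0.33, and the 3 rare ones between 0.74 and 1.41 with longer bars.

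How the libraries were scaled set the sign or the call of several products. bta-miR-122, the hepatocyte miRNA that is the most abundant in liver, took between 26.2% and 31.7% of the grass-fed counts and between 14.9% and 21.6% of the grain-fed counts, so that the remaining miRNAs shared a smaller part of the grass-fed libraries. With total counts in place of TMM, the median over every tested miRNA moved from 0.13 to -0.29 on the log2 scale. What part bta-miR-122 has in this shift was not tested. Scaled to total counts, 3 of the 8 products passed FDR 0.1, against 16.2% of all tested miRNAs. The lower calls were then 87.8% of all calls in place of 50.6%. The 3 products were bta-miR-23a at -0.84 (edgeR FDR 0.0506), bta-miR-23b-3p at -0.80 (edgeR FDR 0.0227) and bta-miR-27a-3p at -0.75 (edgeR FDR 0.0369).

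A change of scaling shifts every log2 fold change by about the same amount, so the distance of a product from the median of all tested miRNAs is nearly fixed by construction under TMM, RLE, upper-quartile and total count scaling, and it describes the product relative to other miRNAs only. bta-miR-23a lay between -0.59 and -0.55 on the log2 scale relative to that median, bta-miR-23b-3p between -0.52 and -0.51, and bta-miR-27a-3p between -0.48 and -0.46. bta-miR-27b lay between 0.039 and 0.058, which is close to the middle of all miRNAs, and bta-miR-24-3p between 0.20 and 0.24. The rare products lay above the median, with bta-miR-24 between 1.28 and 1.29, bta-miR-27a-5p between 0.82 and 0.83 and bta-miR-23b-5p between 0.59 and 0.62.

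**Figure D3:**
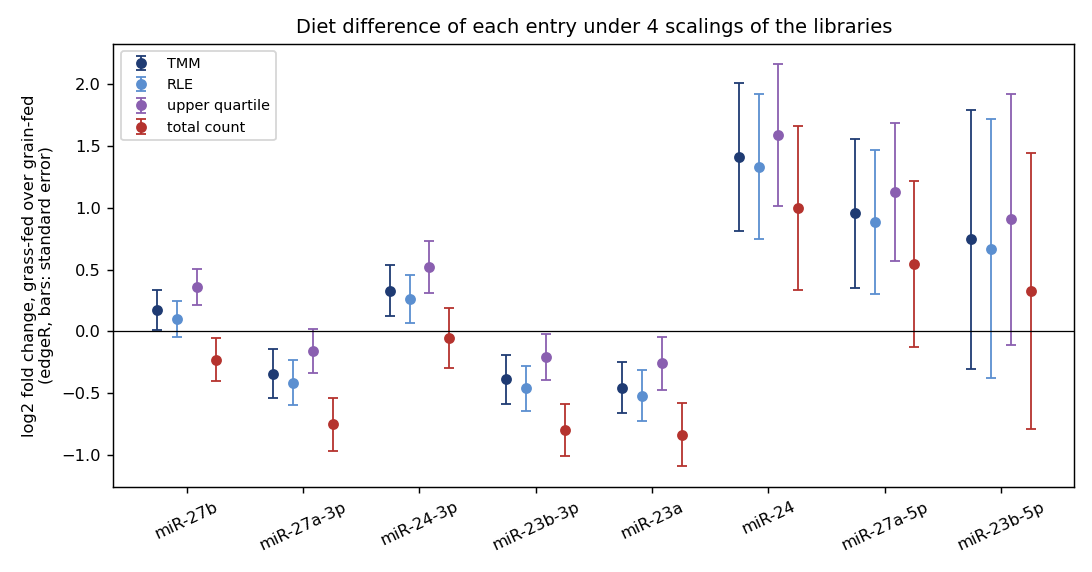
Log2 fold change of each product, grass-fed over grain-fed, under 4 scalings of the libraries, with edgeR standard errors as bars. The points of a product shift together from scaling to scaling, as follows from rescaling whole libraries, and miR-27b runs from 0.17 with TMM to -0.23 with total counts while its distance from miR-27a-3p hardly changes.

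Ratios of products within a library do not depend on the scaling of the libraries, and they address whether products of 1 cluster or of 1 hairpin kept their proportions. The smallest p that 3 libraries against 3 allow in the exact test is 0.1, so that none could pass 0.05. Over 9 ratios, 3 of them added after the values had been seen, the Benjamini-Hochberg adjusted value of each ratio at that p was 0.18.

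The balance of the miR-27 forms differed without overlap. bta-miR-27a-3p was 0.112, 0.0979 and 0.0833 times bta-miR-27b in grass-fed replicates 1, 2 and 3, and 0.144, 0.137 and 0.139 times in grain-fed replicates 1, 2 and 3. The grain-fed ratios lay close together and above all grass-fed ratios, a log2 difference of -0.53 (SE 0.13, two-sided exact permutation p = 0.1). The balance of the miR-23 forms overlapped, with bta-miR-23a at 0.528, 0.368 and 0.462 times bta-miR-23b-3p in grass-fed livers and 0.465, 0.462 and 0.491 times in grain-fed livers, a log2 difference of -0.078 (SE 0.15, exact permutation p = 0.7).

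Within the a cluster, bta-miR-27a-3p was 3.44, 3.93 and 2.79 times bta-miR-23a in grass-fed livers and 2.82, 3.23 and 3.34 times in grain-fed livers. These ranges overlapped, with a log2 difference of 0.10 (SE 0.16, exact permutation p = 0.5). Within the b cluster as named, bta-miR-27b was 16.1, 14.8 and 15.5 times bta-miR-23b-3p in grass-fed livers and 9.09, 10.9 and 11.8 times in grain-fed livers. Here every grass-fed ratio was above every grain-fed ratio, by 0.55 on the log2 scale (SE 0.12, exact permutation p = 0.1). These bta-miR-23b-3p counts are those of the bta-mir-10174 row, a precursor that had no match in the annotation. With the bta-mir-23b row in its place the difference was 0.70 (exact permutation p = 0.1).

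Ratios with bta-miR-24-3p were added after the values had been seen. bta-miR-24-3p was 3.00, 2.91 and 2.83 times bta-miR-23a in grass-fed livers and 1.51, 1.85 and 1.76 times in grain-fed livers, which did not overlap and differed by 0.78 on the log2 scale (SE 0.09, exact permutation p = 0.1). bta-miR-27a-3p was 1.15, 1.35 and 0.985 times bta-miR-24-3p in grass-fed livers and 1.87, 1.75 and 1.90 times in grain-fed livers. That ratio was lower in every grass-fed library, by a log2 difference of -0.68 (SE 0.14, exact permutation p = 0.1).

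Of the 10 pairs among the 5 abundant products, 6 had separate ratios (60%). All 6 pairs that join bta-miR-23a, bta-miR-23b-3p or bta-miR-27a-3p with bta-miR-24-3p or bta-miR-27b were separate, and 0 of the 4 pairs within these sets were. The sets were drawn after the values were seen and cut across the clusters as named, since bta-miR-23b-3p and bta-miR-27b are both b cluster names. Among all 8778 pairs of the 133 miRNAs with a mean of at least 100 CPM, 50.6% had separate ratios. A separate ratio is thus common between any miRNAs of these libraries, and the share within the family was near that background.

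**Figure D4:**
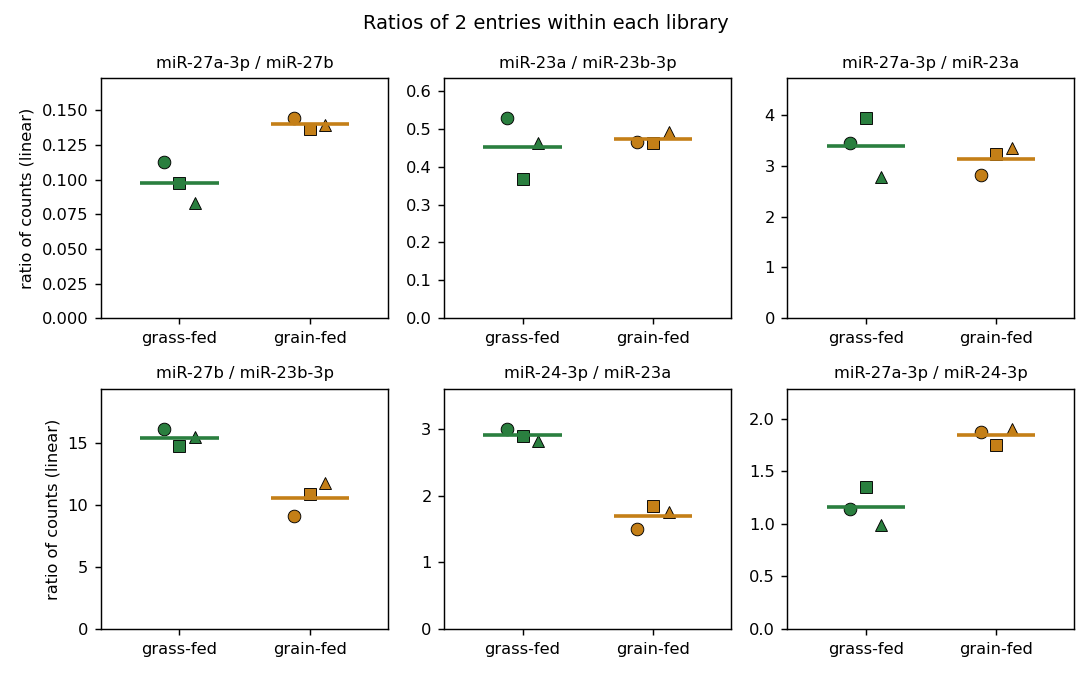
Ratio of the counts of 2 products in each library, with 1 marker per library and a line at the mean of each diet, on linear axes from 0. The diets are separate for miR-27a-3p over miR-27b, miR-27b over miR-23b-3p, miR-24-3p over miR-23a and miR-27a-3p over miR-24-3p, and overlap in the other two panels.

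The share of the rarer product in each pair was small in both diets. The miR-24 pair is not 1 hairpin, since bta-miR-24-3p holds both of its precursors. The miR-23b counts are those of the bta-mir-10174 rows. bta-miR-27a-5p made up 0.212%, 0.160% and 0.199% of the reads of both miR-27a products in grass-fed replicates 1, 2 and 3. In grain-fed replicates 1, 2 and 3 it was 0.0693%, 0.0966% and 0.0670%, all below the grass-fed shares. The ratio of bta-miR-27a-3p to bta-miR-27a-5p differed by -0.94 on the log2 scale (SE 0.18, exact permutation p = 0.1). The grain-fed shares rest on 1 or 2 counts of bta-miR-27a-5p per library, and their exact 95% binomial intervals (Clopper-Pearson), which run from 0.00170% to 0.373% in grain-fed replicate 3, overlap the grass-fed shares.

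Over the 3 libraries of a diet, bta-miR-27a-5p held 55 grass-fed counts, or 0.192% (95% interval 0.145% to 0.250%), and 5 grain-fed counts, or 0.0775% (95% interval 0.0252% to 0.181%). These intervals overlap slightly and leave out the spread between animals. bta-miR-24 was 0.679%, 0.705% and 0.434% of both miR-24 products in grass-fed livers against 0.194%, 0.0845% and 0.759% in grain-fed livers, which overlapped (exact permutation p = 0.4 for the ratio, added after the values were seen). bta-miR-23b-5p was between 0.0889% and 0.110% of both miR-23b products in grass-fed livers. In grain-fed livers it was 0.0908% in replicate 1 and 0 of 1385 and 0 of 909 bta-miR-23b-3p counts in replicates 2 and 3, for which a floor of 3 counts gives 0.217% and 0.330% and the exact 95% binomial interval ends at 0.266% and 0.405%.

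**Figure D5:**
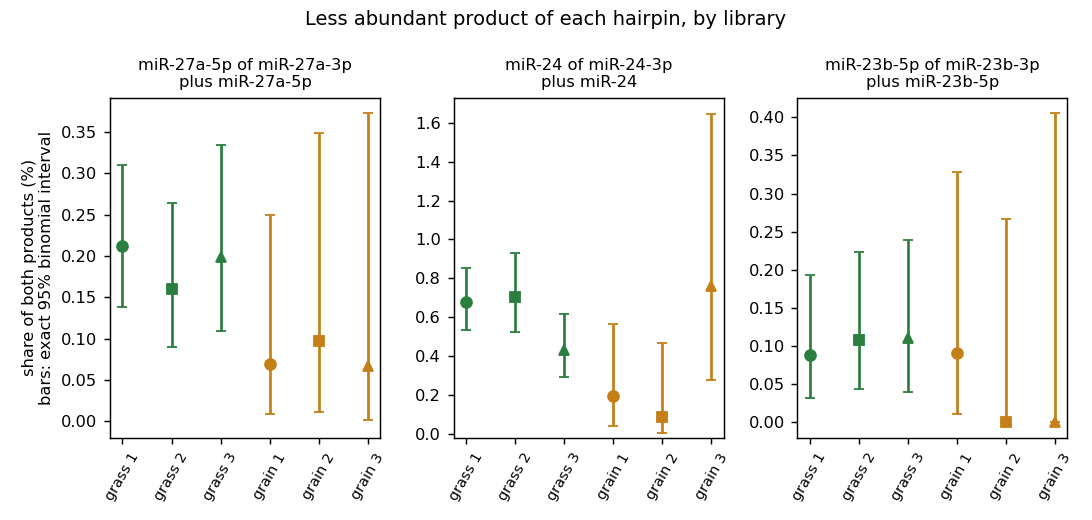
Share of the rarer product in each pair of products, in percent, for each library, with exact 95% binomial intervals as bars. The miR-24-3p counts hold both clusters, and the miR-23b counts are those of the bta-mir-10174 rows. The miR-27a-5p shares are lower in the 3 grain-fed libraries, but each grain-fed interval spans grass-fed values, and the other two panels overlap.

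Other miRNAs with profiles near those of the family were sought among the 128 other tested miRNAs with a mean of at least 100 CPM, by the root mean square distance of centred log2 CPM over the 6 libraries. Nearest to bta-miR-27a-3p were miR-181a at 0.163, miR-425-5p at 0.169 and miR-93, of the miR-106b cluster, at 0.170. Their log2 fold changes were -0.12, -0.45 and -0.36, and none passed FDR 0.1. Nearest to bta-miR-24-3p were miR-28 at 0.104, miR-21-5p, a miRNA of tissue injury, at 0.168 and miR-1839 at 0.182, with log2 fold changes of 0.47, 0.20 and 0.037 that did not pass either. For comparison, the distance was 0.150 between bta-miR-24-3p and bta-miR-27b, 0.159 between bta-miR-23a and bta-miR-23b-3p and 0.294 between bta-miR-27a-3p and bta-miR-27b. bta-miR-27a-3p was 0.170 from bta-miR-23a and 0.173 from bta-miR-23b-3p, about as near as the miRNAs outside the family.

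Markers of liver cell types were read beside these values, because hepatocytes, endothelium and leukocytes all express the family. The 5 hepatocyte miRNAs summed to between 517380 and 821458 CPM in grass-fed livers and between 329131 and 390815 CPM in grain-fed livers, without overlap, and 2 of the 5 were called higher, where 9.43% of all tested miRNAs were. On average bta-miR-122 held 345228 CPM of this sum in grass-fed and 159287 CPM in grain-fed livers, and bta-miR-148a 192311 and 139791 CPM. The log2 fold change of bta-miR-122 was 1.12 (edgeR FDR 0.00419). The list was mixed, since bta-miR-192 was called higher at 0.65 while bta-miR-148a at 0.46, bta-miR-215 at -0.14 and bta-miR-194 at -0.43 did not pass. The 6 leukocyte miRNAs summed to between 1176 and 1779 CPM in grass-fed livers and between 1785 and 2143 CPM in grain-fed livers, with 1 of 6 called lower, where 9.65% of all tested miRNAs were, and these ranges were separated by the step from 1779 to 1785 CPM alone. Of this list bta-miR-146a was called at -0.67. The values of bta-miR-142-3p at -0.98, bta-miR-150 at -0.51, bta-miR-142-5p at -0.13 and bta-miR-155 at 0.40 did not pass. bta-miR-223, a granulocyte miRNA, was at 24.6 ± 1.95 against 38.4 ± 8.61 CPM, a log2 fold change of -0.62 that did not pass (edgeR FDR 0.187).

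The ranges of the endothelial, mesenchymal, erythroid and biliary lists overlapped between the diets. Endothelial miRNAs, 2 in number, were at between 11449 and 16152 CPM against between 9476 and 14335 CPM with 0 called, and endothelial bta-miR-126-3p had a log2 fold change of 0.12 (edgeR FDR 0.782). Mesenchymal miRNAs were at between 79758 and 115821 against between 73767 and 86467 CPM, with 3 of 5 called higher (9.43% of all tested miRNAs). Biliary miRNAs were at between 599 and 880 against between 442 and 704 CPM, with 1 of 5 called higher and 1 lower (9.65% of all tested miRNAs called lower). Erythroid miRNAs were at between 419 and 643 against between 465 and 665 CPM, with 0 of 3 called. Among all listed markers, erythroid miR-144 alone had a count of 0 in a library. With total counts, 1.97% of all tested miRNAs were called higher and 14.3% lower. The higher calls were then 1 of 5 for the hepatocyte list and 1 of 5 for the mesenchymal list. The lower calls were 3 of 6 for the leukocyte list, 1 of 3 for the erythroid list and 1 of 5 for the biliary list. The endothelial list had 0 of 2 called. What part these lists have in the values of the miR-23, miR-24 and miR-27 products was not tested.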

How the data were processed

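Size-selected small RNA from liver was sequenced, 1 library per animal, and groups and replicate numbers were read from the sample labels. The authors trimmed and length-filtered the reads, mapped them to ARS-UCD1.2 and used miRDeep2 to count the known miRNAs of miRBase. The sources used here give neither its version nor the aligner settings, and the labels also name FastQC 0.11.5 and Trimmomatic 0.36. The deposited counts are raw whole numbers, listed per mature miRNA and precursor. The deposited CPM rescales each count by the summed counts of its library, and it was not used.

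For a mature miRNA with several precursor rows the largest count was taken, and the filter asked for more than 2 counts in 2 or more libraries. The diets were compared by edgeR 4.0.16 (R 4.3.3) with TMM factors, its quasi-likelihood F test and Benjamini-Hochberg adjustment over all 456 tested miRNAs, called at FDR 0.1. Standard errors were derived from each log2 fold change and its F statistic. Ratios of 2 products within a library were taken on the log2 scale with 0.5 added to each count, and compared by a two-sided exact permutation test (SciPy 1.17.1). DESeq2 1.42.0, limma-voom (limma 3.58.1), other scalings and filters, and leaving out each library were alternatives. The fits were tested on simulated data.

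The rule for the products goes by name alone, but the choice of this family, of the marker lists and of the tests was made with earlier results of these data known. By the rule for named miRNAs, the text names all 8 products, names with equal counts or a shared precursor, the 3 nearest profiles to bta-miR-27a-3p and to bta-miR-24-3p, up to 3 miRNAs of a lipid list, and 3 markers. Beyond that rule, further miRNAs of the lipid and marker lists are named where the calls and directions within a list are described. The part of that rule on shared seeds was not applied, since mature sequences were not used here. Replicates differed by more than sampling noise, and same-numbered libraries were not treated as pairs.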

Additional observations from a re-analysis of the deposited data

How the results depend on the processing

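The number of the 8 products past FDR 0.1 was 0 with TMM, limma-voom, edgeR's exact test and the older quasi-likelihood fit. It was 3 with total counts (the median of all miRNAs at -0.29), 3 of 7 tested with a filter of 10 counts in 3 libraries, 3 of 6 with filterByExpr, 1 with upper-quartile scaling, 1 with DESeq2 and 1 with the replicate number as a block. Leaving out 1 library gave between 0 and 1, with the 1 being bta-miR-24 without grain-fed replicate 3, and between 49 and 86 called miRNAs in all, the fewest without grain-fed replicate 2. bta-miR-23a was -0.84 with total counts, -0.57 with the filter of 10 counts (FDR 0.0812), -0.55 with filterByExpr (FDR 0.0913) and -0.52 with DESeq2 (FDR 0.09998). bta-miR-23b-3p was -0.80, -0.52 (FDR 0.0625) and -0.50 (FDR 0.0684) in the first 3 of these, and bta-miR-27a-3p -0.75, -0.47 (FDR 0.0835) and -0.45 (FDR 0.0946). The filters test fewer miRNAs, and TMM was computed anew after each. The median of all tested miRNAs was 0.0028 with the filter of 10 counts and 0.00031 with filterByExpr, in place of 0.13. What part each of these has in the calls was not tested. bta-miR-24 was 1.59 with upper-quartile scaling (FDR 0.0860) and 1.43 with the replicate block (FDR 0.0977), and between 0.94 and 2.30 without 1 library.

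Total counts turned bta-miR-24-3p to -0.052 and bta-miR-27b to -0.23, and the summed level of the family from 0.09 to -0.33, with 0.28 under upper-quartile scaling. Counting bta-miR-23b from its own precursor moved the diet difference in the log2 ratio of bta-miR-27b to bta-miR-23b-3p from 0.55 to 0.70. The diet difference in the log2 ratio of bta-miR-23a to bta-miR-23b-3p turned from -0.078 to 0.069, and that of the miR-23b arms from -0.86 to 0.16. The value for the arms rests on 1, 2 and 1 bta-miR-23b-5p counts in grass-fed and 0 in each grain-fed library. It is therefore limited by counting and by the 0.5 added to each count. The log2 fold change of bta-miR-23b-3p from its own precursor was -0.54 (edgeR FDR 0.136). With the largest counts and without 1 library, the diet difference for bta-miR-23a over bta-miR-23b-3p ran from -0.20 to 0.063. That for bta-miR-27a-3p over bta-miR-23a ran from -0.012 to 0.24, and both changed sign without grass-fed replicate 2. In grass-fed replicate 2 the bta-mir-23b row held 51.0% of the bta-miR-23b-3p reads of the bta-mir-10174 row. In the other libraries it held between 66.8% and 73.6%. The cause of the sign changes was not tested. With each library left out in turn, the diet difference in the log2 ratio of bta-miR-27a-3p to bta-miR-27b ran from -0.64 to -0.42. That of bta-miR-27b to bta-miR-23b-3p ran from 0.45 to 0.63 and that of the miR-27a arms from -1.06 to -0.82. Without 1 library bta-miR-23a ran from -0.62 to -0.36, bta-miR-23b-3p from -0.53 to -0.35, bta-miR-23b-5p from 0.16 to 5.10, bta-miR-24-3p from 0.13 to 0.43, bta-miR-27a-3p from -0.55 to -0.31, bta-miR-27a-5p from 0.63 to 1.08 and bta-miR-27b from 0.09 to 0.17. Same-numbered libraries did not deviate together (correlations of -0.111, -0.244 and -0.0145), so the block joins libraries that share only a number, and it left 82 called miRNAs in place of 87.

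With at most 6 counts in a grain-fed library, the levels of bta-miR-24, bta-miR-27a-5p and bta-miR-23b-5p there are limited by counting. Alternatives whose filter removed bta-miR-23b-5p or bta-miR-27a-5p gave no value for it.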

Other observations

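A list of 12 miRNAs known for lipid, lipoprotein or bile acid genes was read beside the family. Of the 11 tested, 5 were called higher in grass-fed livers and 0 lower (edgeR, FDR 0.1), where 9.43% of all tested miRNAs were called higher, and the median log2 fold change was 0.78 against 0.13 for all. With total counts 3 were called higher (1.97% of all tested miRNAs) and 1 lower (14.3%), as bta-miR-185 (edgeR FDR 0.415) and bta-miR-30c (edgeR FDR 0.331) no longer passed and bta-miR-223 did, at -1.04 (edgeR FDR 0.0450). With TMM, bta-miR-223 at -0.62, bta-miR-144 at -0.32 and bta-miR-34a at -0.25 had negative values that did not pass. bta-miR-128 was at 409 ± 153 CPM in grass-fed and 116 ± 41.9 CPM in grain-fed livers (n = 3 each, with SD), with a log2 fold change of 1.82 (edgeR FDR 0.00290). bta-miR-370 was at 38.2 ± 12.9 against 12.5 ± 4.15 CPM, a log2 fold change of 1.68 (edgeR FDR 0.0169). bta-miR-33a, which represses the cholesterol exporter ABCA1, had 4, 4 and 3 counts in grass-fed and 0 in each grain-fed library, too few to give a fold.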
